A study of Mus musculus with 8 samples.

Results

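The genes described here are 30 transcripts of T cells and intraepithelial lymphocytes, chosen by name from the 49585 gene identifiers measured in mouse intestine. They cover the T cell receptor and its CD3 chains, the CD4 and CD8 co-receptors, proximal signalling, adhesion, retention in the epithelium, cytotoxic granules, chemokines, and regulatory or co-stimulatory receptors. RNA was taken with Trizol from flash-frozen intestine of 8 C57BL/6 mice, 4 labelled Klebsiella recipients and 4 labelled Lactobacillus recipients, and sequenced from Illumina TruSeq libraries. The groups share the strain and the tissue. There was no untreated group among the libraries analysed. What the mice received beyond these bacterial names, for how long, the age of the mice and the segment of intestine were not given in the sources used here. Libraries are named by group with their mouse number as the replicate, and the 4 values of a group stand in the order of mouse numbers 1 to 4 throughout. Values are FPKM, the reads of a gene scaled by its length and by the size of the library, so that levels can be compared between genes.

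A T cell recognises antigen through a receptor made of an alpha and a beta chain, or of a gamma and a delta chain, and passes the signal on through the CD3 chains, the kinases LCK and ZAP-70 and the adaptor LAT. Intraepithelial lymphocytes are T cells that lie between the epithelial cells of the gut. Many of them carry CD8, a gamma-delta receptor and the integrin alpha-E chain CD103, and hold granzymes ready for release. The lamina propria beneath holds more CD4 T cells, among them FOXP3-positive regulatory T cells.

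RefSeq promoters (GRCm38.p6) were matched by symbol for 17 of the 30 genes, with 22 starts between them, and 4 are printed here because the results below turn on these genes: Cd3d and Cd3e for the receptor complex, Cd8a for the CD8 co-receptor and Gzma for the cytotoxic granule. Each is the 150 bases before the RefSeq start, written from 5′ to 3′ on the strand of the gene, with matches to the 4 motifs below in capitals. The GENCODE model of Cd3e begins inside the printed stretch.
Cd3d, chr9:44981636-44981785, plus strand: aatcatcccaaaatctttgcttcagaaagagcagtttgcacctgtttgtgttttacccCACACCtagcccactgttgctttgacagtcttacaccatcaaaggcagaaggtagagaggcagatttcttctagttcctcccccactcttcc
Cd3e, chr9:45009612-45009761, minus strand: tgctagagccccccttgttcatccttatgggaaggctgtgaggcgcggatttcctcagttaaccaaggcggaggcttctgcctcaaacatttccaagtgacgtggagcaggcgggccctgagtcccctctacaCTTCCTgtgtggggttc
Cd8a, chr6:71373277-71373426, plus strand: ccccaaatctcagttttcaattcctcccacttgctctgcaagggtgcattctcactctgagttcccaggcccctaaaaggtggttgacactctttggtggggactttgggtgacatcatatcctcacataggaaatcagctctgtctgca
Gzma, chr13:113100982-113101131, minus strand: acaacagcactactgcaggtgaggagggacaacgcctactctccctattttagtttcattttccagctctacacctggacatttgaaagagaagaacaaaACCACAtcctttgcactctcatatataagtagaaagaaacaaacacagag
Cd3d held CACACC, the reverse complement of the T-box letters, with its first base 92 bases before the start. Cd3e held CTTCCT, the reverse complement of the ETS letters, with its first base 17 bases before the start. Gzma held ACCACA, the reverse complement of the RUNX letters, with its first base 50 bases before the start. The Cd8a stretch held none of the 4.

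Over the 250 bases before the start and on both strands, the ETS letters AGGAAG were found in 13 of the 17 genes (16 of 22 starts) and in 29.48% of 32851 RefSeq promoters. The RUNX letters TGTGGT were found in 8 of the 17 (9 of 22 starts) and in 14.05% of all promoters. They occurred in Gzma, Gzmb, Prf1, Nkg7, Cd160, Xcl1, Lck and Zap70. The T-box letters GGTGTG were found in 5 of the 17 (6 of 22 starts), in Cd160, Cd3d, Nkg7, Xcl1 and Zap70, and in 16.28% of all promoters. The E-box letters CAGCTG were found in 3 of the 17 (3 of 22 starts), in Cd160, Foxp3 and Prf1, and in 13% of all promoters. The shares of all promoters count starts, so that the counts of starts are the ones to set beside them. RUNX and T-box letters can overlap, since both hold TGTG. A match describes letters only and is not evidence that a factor was bound.

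All 30 transcripts were detected in all 8 libraries, at low levels. Their mean over the 8 libraries ran from 0.125 FPKM for Trdc to 6.98 FPKM for Cd4, with a median of 1.73. Between 15753959 and 21548070 reads per library fell in genes, as recovered from the steps of the FPKM values, out of 40455910 to 55447220 filtered reads. A single gene of the set had between 1 and 291 of these reads in a library. Defining transcripts of T cells (Cd3d, Cd3e, Cd3g, Trac, Trbc2 and Lck) were above 0 in every library. In RNA from whole tissue, fewer cells of a type and less RNA per cell cannot be told apart.

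No T cell gene passed the test between the recipients. Of the 30, 25 reached a mean of 0.5 FPKM and were tested with limma on log2(FPKM + 0.5). Trdc, Cd8b1, Cd5, Prf1 and Foxp3 did not reach it. Of the 25, 0 were higher and 0 lower in Klebsiella recipients at an adjusted p under 0.05, as were 0% of the 16865 genes tested, and the smallest adjusted p in the set was 0.79. An unadjusted p under 0.05 was reached by 0 of the 25, against 6.07% of all genes tested, and voom on the recovered reads likewise had 0 of the 25. The ranges of the 2 groups overlapped for every one of the 30, including those too low to test. They did not overlap for 2.99% of all genes tested, a share at which a set of this size would hold few or none. The log2 difference, Klebsiella minus Lactobacillus, was above 0 for 6 of the 25 and for 46.4% of all genes tested, with a median of -0.19 in the set and -0.02 over all genes. Without Lactobacillus replicate 2 it was above 0 for 20 of the 25, against 49.4% of all genes tested, with a median of 0.09.

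**Figure D1:**
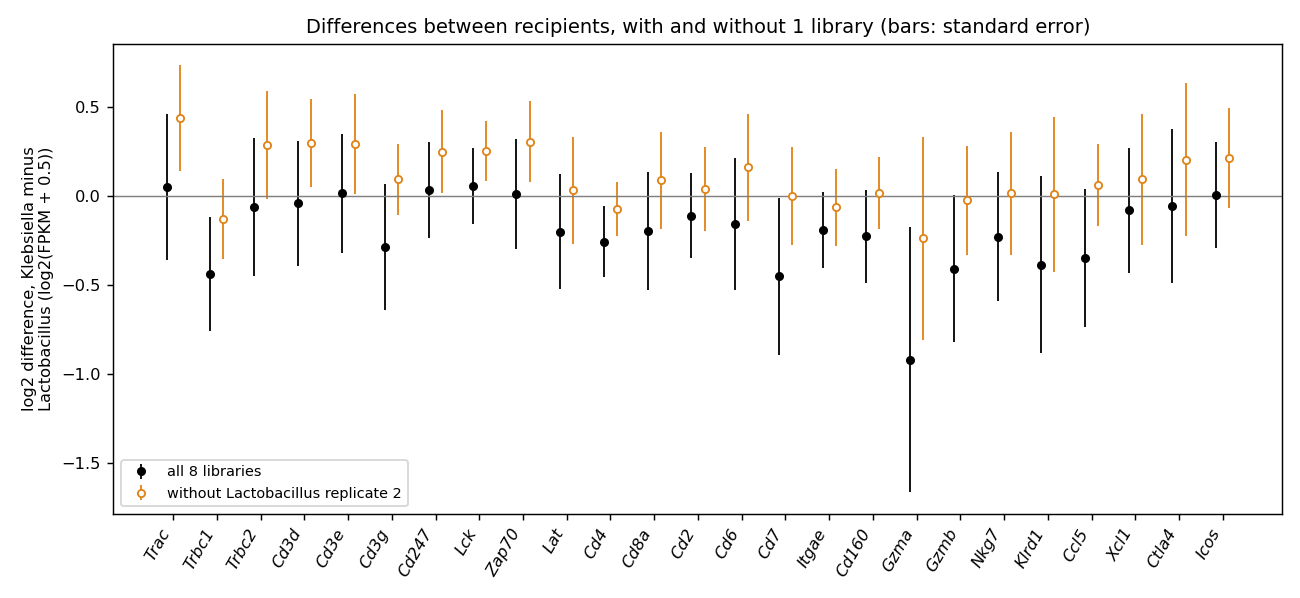
Log2 difference between Klebsiella and Lactobacillus recipients on the log2(FPKM + 0.5) scale for the 25 tested genes, with the standard error as bars, from all 8 libraries (filled) and without Lactobacillus replicate 2 (open). With all libraries 19 of 25 points lie below 0 and Gzma lies lowest at -0.92; without that library 20 of 25 lie above 0.

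The set varied mostly between single mice. Lactobacillus replicate 2 had the highest level of 27 of the 30 genes. Among the 25 tested this was 24, and it was the highest library for 12% of all genes tested. The exceptions were Cd8b1, highest in Klebsiella replicate 2, and Xcl1 and Foxp3, highest in Klebsiella replicate 4. In all of these Lactobacillus replicate 2 was second, and counting error does not separate it from the highest library. Its reads were 13 against 14 for Cd8b1, 10 against 10 for Xcl1 and 22 against 24 for Foxp3. The level in Lactobacillus replicate 2 was 1.45 to 8.93 times the median of the other 7 libraries, with a median over the set of 2.46, and 1.03 over all genes tested. It was at least 2-fold above that median for 21 of the 30 genes and for 3.66% of all genes tested. Lactobacillus replicate 3 was the lowest library for 15 of the 30, for 11 of the 25 tested, and for 12.8% of all genes tested. Klebsiella replicate 1 was the lowest for 6 of the 25 tested and for 15.8% of all genes tested. The highest and the lowest mouse of most of these genes were thus both Lactobacillus recipients.

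**Figure D2:**
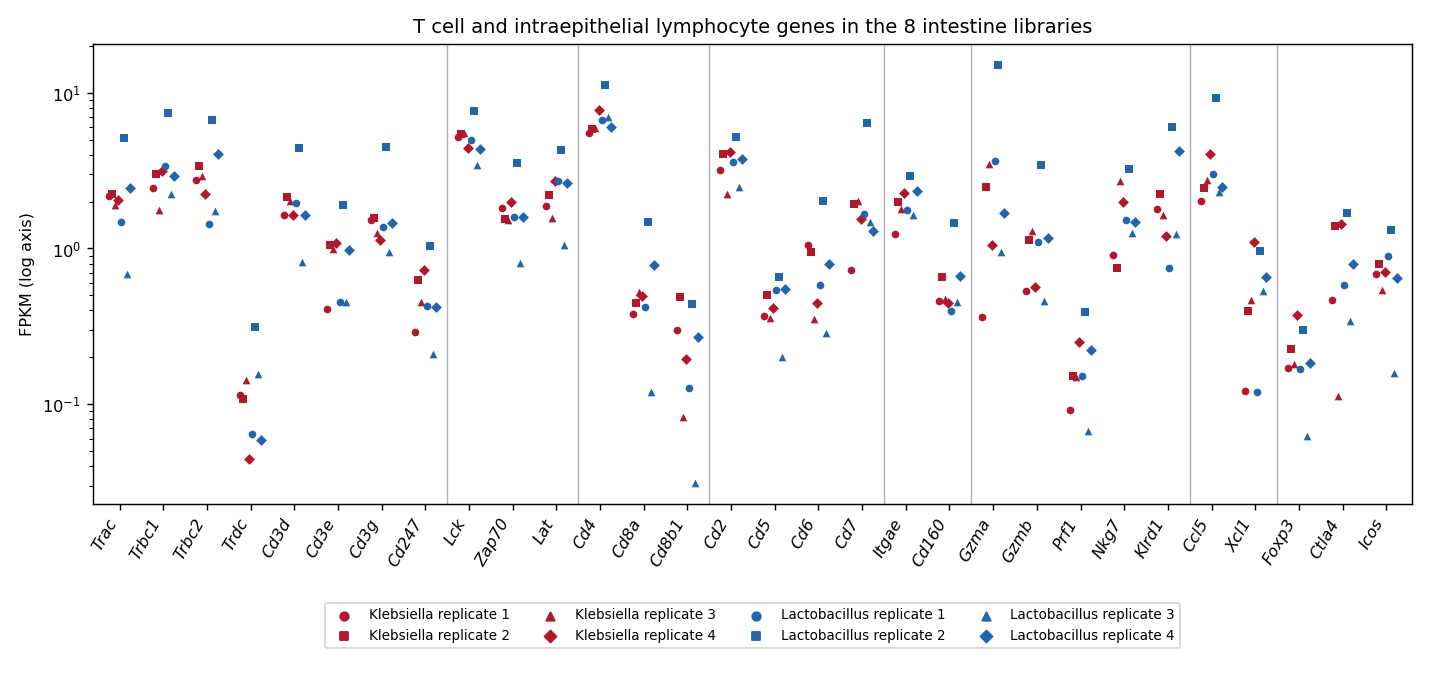
FPKM (log axis) of the 30 genes in each of the 8 libraries, grouped by role from left to right; red marks Klebsiella and blue Lactobacillus recipients, and the marker shape gives the mouse number. The blue square, Lactobacillus replicate 2, is the highest point for 27 of the 30 genes, and the blue triangle, Lactobacillus replicate 3, is the lowest for 15.

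The chains of the alpha-beta receptor were all highest in Lactobacillus replicate 2. Trac, the alpha constant region, was at 2.16, 2.24, 1.91 and 2.05 FPKM in Klebsiella and at 1.48, 5.10, 0.687 and 2.45 in Lactobacillus recipients. The Klebsiella recipients lay close together, at 2.09 ± 0.143 (SD, n = 4), inside the wide range of the Lactobacillus recipients, at 2.43 ± 1.92 (SD, n = 4). The log2 difference of Trac was 0.05 (SE 0.41, limma adjusted p 0.988), and 0.44 without Lactobacillus replicate 2. The beta constant regions Trbc1 and Trbc2 ranged from 1.77 to 7.36 and from 1.44 to 6.65 FPKM. They share 40.54% of the 50-base stretches of Trbc1 and 44.01% of those of Trbc2, so that reads may be split between them and their separate levels are uncertain. The log2 difference was -0.44 for Trbc1 (SE 0.32, limma adjusted p 0.79) and -0.06 for Trbc2 (SE 0.39, limma adjusted p 0.984).

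The CD3 chains carry the signal of either kind of receptor into the cell. Their genes Cd3g, Cd3d and Cd3e lie side by side on chromosome 9, between 44969572 and 45009627 on GRCm38. Cd3d was at 1.64, 2.13, 2.01 and 1.65 FPKM in Klebsiella and at 1.96, 4.41, 0.820 and 1.63 in Lactobacillus recipients. Cd3e was at 0.412, 1.06, 0.996 and 1.08 FPKM in Klebsiella and at 0.457, 1.89, 0.451 and 0.973 in Lactobacillus recipients, from 8 to 46 reads. For Cd3e the low libraries were Klebsiella replicate 1 and Lactobacillus replicates 1 and 3, so that both groups held low and high mice. Cd3g ranged from 0.943 to 1.57 FPKM in 7 libraries and was at 4.50 in Lactobacillus replicate 2. Cd247, the zeta chain, ranged from 0.211 to 1.04 FPKM. The log2 differences were -0.04 for Cd3d, 0.02 for Cd3e, -0.29 for Cd3g and 0.04 for Cd247, with limma adjusted p-values from 0.866 to 0.997.

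Per length, the delta constant region was lower than the alpha constant region in every library. The gene models differ in length, with 3785 windows of 50 bases in Trdc and 886 in Trac, and in reads Trdc was above Trac in Lactobacillus replicate 3, at 13 against 10. Trdc, the delta constant region, was at 0.115, 0.108, 0.143 and 0.0447 FPKM in Klebsiella and at 0.0646, 0.314, 0.156 and 0.0590 in Lactobacillus recipients, from 3 to 24 reads. It was highest in Lactobacillus replicate 2, and its groups overlapped. Tcrg-C1, a gamma constant region outside the set, was at 1.17, 0.901, 0.929 and 1.06 FPKM in Klebsiella and at 0.676, 3.34, 1.20 and 1.67 in Lactobacillus recipients (limma adjusted p 0.799). Of 11 matched genes of a gamma-delta T cell list, 8 were tested and 0 passed; 4 had a log2 difference above 0 and 4 below, with a median of 0.01.

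Rearranged receptors use 1 of many variable segments per chain, and 77 of 176 variable segments were above 0 in any library. The number above 0 was 19, 26, 15 and 21 in Klebsiella recipients and 15, 52, 18 and 24 in Lactobacillus recipients. Their summed level was 5.75, 7.94, 6.61 and 4.6 FPKM in Klebsiella and 4.26, 19.6, 4.58 and 7.99 FPKM in Lactobacillus recipients. Lactobacillus replicate 2 was the highest by both measures, and the other libraries of both groups overlapped. Of 128 segments with an alpha symbol (Trav) 25 were above 0 in Lactobacillus replicate 2 and 2 to 11 in the others. Of 35 with a beta symbol (Trbv) 19 were, against 5 to 14. Chains were assigned by the start of the symbol, so that segments shared by the alpha and delta chains count as alpha. Lactobacillus replicate 2 alone held 17 of the 77 segments, and each other library alone held 0 to 6. Of 6 segments with a symbol of the delta chain alone (Trdv), only Trdv4 was above 0. It was in all 8 libraries, at 1.14, 0.821, 1.66 and 0.519 FPKM in Klebsiella and at 0.281, 2.05, 0.417 and 0.257 in Lactobacillus recipients. It had the highest mean of all segments, followed by the gamma segments Tcrg-V1 (0 to 0.974 FPKM), Trgv2 (0.106 to 1.03) and Tcrg-V5 (0 to 1.44). A segment listed at 0 may still be present below the depth of its library.

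Among the signalling genes Lck was the most abundant, second only to Cd4 in the whole set. Lck, the kinase that phosphorylates the CD3 chains, was at 5.21, 5.47, 5.47 and 4.39 FPKM in Klebsiella and at 4.97, 7.65, 3.44 and 4.34 in Lactobacillus recipients. Its log2 difference was 0.06 (SE 0.22, limma adjusted p 0.969). Zap70, the kinase recruited to the phosphorylated chains, ranged from 1.52 to 2.00 FPKM in Klebsiella and from 0.803 to 3.55 in Lactobacillus recipients. Lat, the adaptor downstream of it, ranged from 1.57 to 2.72 and from 1.05 to 4.28 FPKM. All 3 were highest in Lactobacillus replicate 2 and lowest in Lactobacillus replicate 3. Their limma adjusted p-values ran from 0.907 to 0.998.

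A list of 25 T cell signalling partners, which holds none of the 30, showed the same pair of extreme libraries. Of its 17 tested genes 0 passed limma and 0 were under an unadjusted p of 0.05, 9 had a log2 difference above 0 and 8 below, with a median of 0.01. Lactobacillus replicate 2 was the highest library for 14 of the 25 and Lactobacillus replicate 3 the lowest for 14. Ptprc, the common leukocyte antigen CD45, was at 12, 17.8, 12.4 and 21.5 FPKM in Klebsiella and at 14.8, 21.3, 7.71 and 17.7 in Lactobacillus recipients. Ptprcap, which associates with CD45, ranged from 3.5 to 10.1 FPKM.

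CD4 transcripts far outnumbered CD8 transcripts per length of gene. All 3 co-receptor genes lie on chromosome 6 of GRCm38, Cd8b1 at 71322788 to 71337494 next to Cd8a at 71373427 to 71379173, and Cd4 at 124864692 to 124888221. Cd4 was at 5.50, 5.83, 5.93 and 7.72 FPKM in Klebsiella and at 6.66, 11.2, 6.95 and 6.04 in Lactobacillus recipients. Besides helper T cells, some dendritic cells and innate lymphoid cells carry CD4. Cd8a, the chain shared by both forms of CD8, was at 0.378, 0.446, 0.525 and 0.494 FPKM in Klebsiella and at 0.419, 1.49, 0.121 and 0.786 in Lactobacillus recipients. Cd4 was the steadiest gene of the set outside Lactobacillus replicate 2, with a highest level 1.40 times the lowest, while Cd8a spanned 6.51-fold over the same 7 libraries. Cd4 had 114 to 197 reads in these libraries and Cd8a 7 to 37, so that counting error weighs more on Cd8a. The 7 reads are those of Lactobacillus replicate 3, with an exact 95% Poisson interval of 2.81 to 14.4 reads. The log2 difference was -0.26 for Cd4 (SE 0.20, limma adjusted p 0.799) and -0.20 for Cd8a (SE 0.33, limma adjusted p 0.91).

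Cd8b1, whose chain pairs with CD8 alpha on conventional CD8 T cells, was at 0.299, 0.491, 0.0827 and 0.194 FPKM in Klebsiella and at 0.126, 0.443, 0.0312 and 0.269 in Lactobacillus recipients. These values rest on 7, 14, 2 and 5 reads and on 3, 13, 1 and 7 reads. The single read of Lactobacillus replicate 3 has an exact 95% Poisson interval of 0.0253 to 5.57 reads, counting error only. Cd8b1 was the most variable gene outside Lactobacillus replicate 2, at 15.7-fold, and at this depth most of its libraries cannot be told apart.

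Ratios within a library set pairs of transcripts against each other, as log2((FPKM a + 0.05) / (FPKM b + 0.05)). Since cells other than T cells also carry CD4, a ratio with Cd4 is not a ratio between kinds of T cell. The 12 ratios were tested by exact permutation, two-sided, of the 70 ways to split the libraries 4 and 4. The smallest p that 4 against 4 can give is 0.0286, so that 1 ratio alone could not go below 0.343 after adjustment, and at least 7 of the 12 would have to reach that smallest p for any to pass. None passed, and the smallest adjusted p was 0.343. The ratio of Cd8a to Cd4 lay between 0.0244 (Lactobacillus replicate 3, from 7 reads of Cd8a) and 0.137 (Lactobacillus replicate 4) on the linear scale. On the log2 scale it was -3.70, -3.57, -3.38 and -3.84 in Klebsiella recipients and -3.84, -2.87, -5.36 and -2.86 in Lactobacillus recipients. The Klebsiella recipients were alike, at -3.62 ± 0.196 (SD, n = 4), and the Lactobacillus recipients lay on both sides of them, at -3.73 ± 1.18 (SD, n = 4; exact permutation p 0.914). The ratio of Cd8b1 to Cd8a ran from 0.231 to 1.09 on the linear scale, and that of Cd4 to Cd3e from 5.31 to 14.0. The ratio of Cd8a to Cd3e ran from 0.341 to 0.926 and had its lowest value in Lactobacillus replicate 3.

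The delta to alpha chain ratio, Trdc to Trac, lay between 0.0435 and 0.279 on the linear scale. Its log2 values were -3.75, -3.86, -3.35 and -4.47 in Klebsiella and -3.74, -3.82, -1.84 and -4.52 in Lactobacillus recipients. The highest was Lactobacillus replicate 3, the library lowest in Trac, with 13 reads of Trdc and 10 of Trac. The groups overlapped (difference -0.37, exact permutation p 0.714, n = 4 each).

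**Figure D3:**
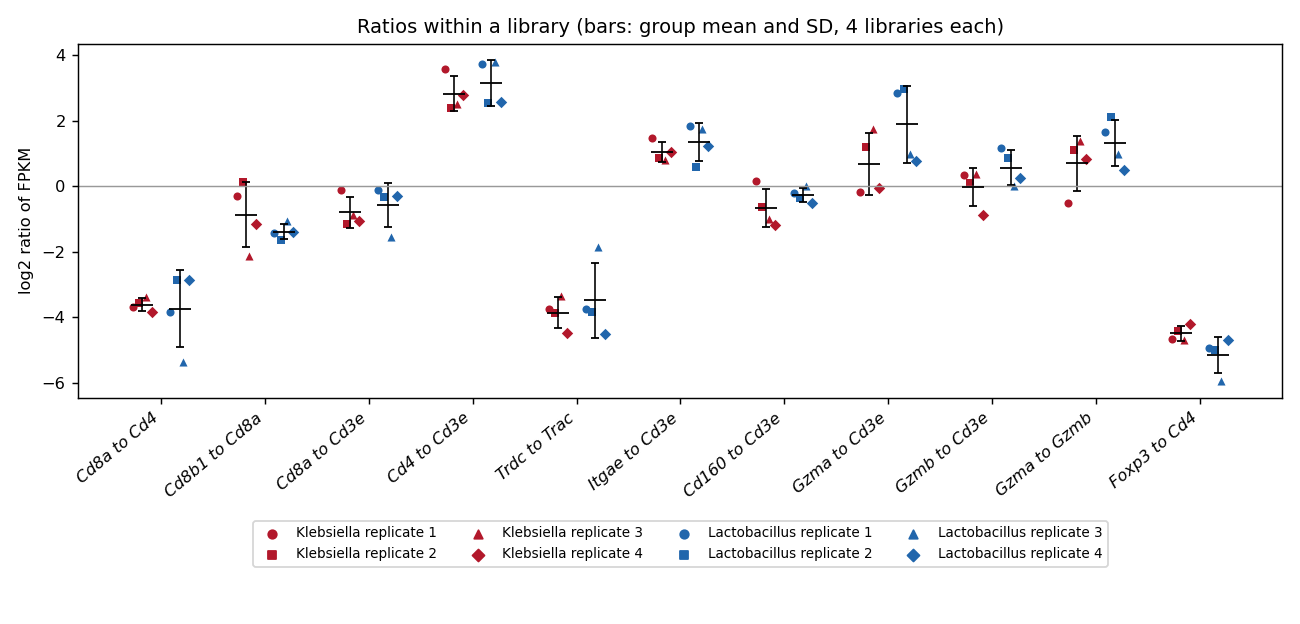
Log2 ratios of FPKM between pairs of lymphocyte genes within each of the 8 libraries, Klebsiella recipients in red and Lactobacillus recipients in blue, with the group mean and SD (4 libraries each) as bars. Of the 12 tested, 11 are plotted and none passed after adjustment. The Cd8a to Cd4 points of the Klebsiella recipients lie between -3.84 and -3.38, and those of the Lactobacillus recipients between -5.36 and -2.86. The point at -5.36, Lactobacillus replicate 3, rests on 7 reads of Cd8a.

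Surface receptors that tune or adhere spanned different ranges. Cd2, an adhesion receptor of T cells and natural killer cells, was at 3.21, 4.04, 2.25 and 4.16 FPKM in Klebsiella and at 3.57, 5.18, 2.5 and 3.75 in Lactobacillus recipients. Lactobacillus replicate 2 stood only 1.24 times above the next library there. Cd5 and Cd6, scavenger receptors that dampen receptor signals, ranged from 0.201 to 0.660 and from 0.288 to 2.02 FPKM. Cd7, an immunoglobulin-family receptor of T cells, natural killer cells and many intraepithelial lymphocytes, was at 0.725, 1.92, 2.03 and 1.54 FPKM in Klebsiella and at 1.67, 6.42, 1.47 and 1.30 in Lactobacillus recipients. Lactobacillus replicate 2 was 3.17 times the next highest library for Cd7. The log2 difference of Cd7 was -0.45 (SE 0.44, limma adjusted p 0.828) with all libraries and 0.00075 without that one.

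Lactobacillus replicate 2 stood out less in the retention receptor gene Itgae, at 1.24 times the next library, than in the receptor gene Cd160, at 2.18 times. Itgae, the integrin chain CD103 that binds E-cadherin on epithelial cells, was at 1.24, 1.98, 1.79 and 2.28 FPKM in Klebsiella and at 1.76, 2.90, 1.64 and 2.33 in Lactobacillus recipients. Its groups overlapped over most of their range, at 1.82 ± 0.44 and 2.16 ± 0.579 (SD, n = 4 each; log2 difference -0.19, SE 0.21, limma adjusted p 0.855). The gene overlaps Haspin on the other strand, and whether the authors counted by strand was not given in the sources used here. Cd160, a receptor of intraepithelial and natural killer lymphocytes that binds the epithelial ligand HVEM, was at 0.462, 0.658, 0.477 and 0.448 FPKM in Klebsiella and at 0.395, 1.45, 0.450 and 0.666 in Lactobacillus recipients. Its gene lies across Pdzk1, an epithelial gene on the other strand. Its log2 difference was -0.23 (SE 0.26, limma adjusted p 0.859).

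The epithelial side of this contact was described by 17 matched genes for ligands and cytokines that lymphocytes in the epithelium use, of which 16 were tested and 0 passed limma or an unadjusted p of 0.05. The log2 difference was above 0 for 4 and below 0 for 12, with a median of -0.16. Lactobacillus replicate 2 was the highest library for 0 of the 17. Cdh1, which encodes the E-cadherin bound by CD103, stayed within 367 to 461 FPKM. Il15, the cytokine that sustains these lymphocytes, ranged from 8.0 to 33.6 FPKM; it was named after its values had been seen, as were the next 2. Btnl1, a butyrophilin-like protein that sustains gamma-delta intraepithelial lymphocytes, was at 5.58, 15.5, 29.99 and 12 FPKM in Klebsiella and at 8.12, 17.5, 9.80 and 13 in Lactobacillus recipients. H2-T3, which encodes the TL antigen bound by CD8 alpha-alpha, was at 2.33, 7.54, 28.4 and 5.53 FPKM in Klebsiella and at 4.82, 18.6, 1.40 and 1.89 in Lactobacillus recipients. Klebsiella replicate 3 was thus the highest for both.

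Granzyme A, encoded on chromosome 13 at 113093825 to 113100981 of GRCm38, was the gene of the set that differed most between mice and, among those tested, between the groups. Gzma was at 0.361, 2.49, 3.49 and 1.05 FPKM in Klebsiella and at 3.63, 15.1, 0.949 and 1.69 in Lactobacillus recipients. Reads were 5, 42, 50 and 16 in Klebsiella and 51, 262, 18 and 26 in Lactobacillus recipients. Over the 8 mice the highest level was 41.8 times the lowest, and outside Lactobacillus replicate 2 it was 10.1 times. Group means were 1.85 ± 1.41 and 5.34 ± 6.59 FPKM (SD, n = 4 each), so that the SD of the Lactobacillus recipients exceeded the difference between the means. The log2 difference was -0.92 (SE 0.75, limma adjusted p 0.803), and -0.24 without Lactobacillus replicate 2.

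The other granule and killer receptor genes had lower means. Gzmb, the granzyme that activates caspases in the target cell, was at 0.536, 1.14, 1.30 and 0.569 FPKM in Klebsiella and at 1.1, 3.46, 0.457 and 1.17 in Lactobacillus recipients (log2 difference -0.41, SE 0.41, limma adjusted p 0.835). Prf1, the pore-forming perforin, was at 0.0925, 0.152, 0.149 and 0.252 FPKM in Klebsiella and at 0.152, 0.394, 0.0676 and 0.222 in Lactobacillus recipients, from 3 to 16 reads. Nkg7, a granule membrane protein, ranged from 0.746 to 2.72 FPKM in Klebsiella and from 1.26 to 3.26 in Lactobacillus recipients. Klrd1, the CD94 receptor of natural killer cells and CD8 T cells, was at 1.79, 2.25, 1.65 and 1.20 FPKM in Klebsiella and at 0.744, 6.03, 1.24 and 4.25 in Lactobacillus recipients. For Klrd1 the lowest and the 2 highest mice were Lactobacillus recipients (log2 difference -0.39, SE 0.50, limma adjusted p 0.873).

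Set against the T cell receptor, the granzymes still varied between mice. The log2 ratio of Gzma to Cd3e was -0.17, 1.20, 1.76 and -0.03 in Klebsiella and 2.86, 2.96, 0.99 and 0.77 in Lactobacillus recipients. The highest were Lactobacillus replicates 2 and 1, and the groups overlapped (difference -1.21, exact permutation p 0.171, adjusted p 0.6, n = 4 each). The ratio of Gzma to Gzmb ran from 0.701 in Klebsiella replicate 1 to 4.31 in Lactobacillus replicate 2 on the linear scale (difference on the log2 scale -0.62, exact permutation p 0.343, n = 4 each).

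Granzymes are also made by natural killer cells, most of whose listed markers were too low to test but were detected. All 13 genes of a natural killer list were found and 2 reached the level for testing, Klrb1b and Fcgr3, the latter also expressed by macrophages. Klrb1b was at 1.13 to 2.25 FPKM, from 25 to 50 reads. The summed level of the list was 11.3 to 20.5 FPKM in Klebsiella and 10.8 to 23.2 in Lactobacillus recipients, most of it Fcgr3, so that it does not describe natural killer cells. Without Fcgr3 the other 12 summed to 2.39 to 4.65 FPKM in Klebsiella and 2.02 to 5.21 in Lactobacillus recipients, highest in Lactobacillus replicate 2, and 7 of the 13 were highest in Lactobacillus replicate 2. Ncr1, the receptor NKp46, was at 0.214, 0.282, 0.415 and 0.545 FPKM in Klebsiella and at 0.464, 0.752, 0.125 and 0.154 in Lactobacillus recipients. These values come from 4 to 22 reads. Klrb1c, the NK1.1 antigen, was at 0.0862 to 0.593 FPKM and Eomes at 0.0232 to 0.0941. None of these defining markers was at 0. Their part in the granzyme levels was not tested. Of 9 tested genes in a list of other cytotoxic transcripts 0 passed, with 2 log2 differences above 0 and 7 below and a median of -0.06.

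Chemokines released by activated lymphocytes gave the next pattern. Ccl5, stored by memory CD8 T cells, was at 2.01, 2.43, 2.76 and 4.03 FPKM in Klebsiella and at 3.02, 9.18, 2.31 and 2.47 in Lactobacillus recipients. Outside Lactobacillus replicate 2 all 7 mice lay within 2.01-fold of each other. The log2 difference was -0.35 (SE 0.39, limma adjusted p 0.855), and 0.06 without that library. Xcl1, lymphotactin, was at 0.121, 0.398, 0.469 and 1.1 FPKM in Klebsiella and at 0.119, 0.966, 0.531 and 0.654 in Lactobacillus recipients, from 1 to 10 reads, which is too few to rank most mice.

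Of the 3 regulatory and co-stimulatory transcripts, Ctla4 and Icos were highest in Lactobacillus replicate 2. Foxp3 was second highest there, with 22 reads against 24 in Klebsiella replicate 4. Foxp3, the factor that defines regulatory T cells, was at 0.171, 0.225, 0.182 and 0.373 FPKM in Klebsiella and at 0.168, 0.300, 0.0625 and 0.185 in Lactobacillus recipients. These values come from 10, 16, 11 and 24 reads and from 10, 22, 5 and 12 reads. Foxp3 shares 14.7% of its 50-base stretches with Flicr, a non-coding gene on the same strand. Ctla4, an inhibitory receptor of regulatory and activated T cells, was at 0.470, 1.40, 0.114 and 1.44 FPKM in Klebsiella and at 0.579, 1.69, 0.343 and 0.793 in Lactobacillus recipients. Outside Lactobacillus replicate 2 it spanned 12.7-fold, with 2 reads in Klebsiella replicate 3. Icos, a co-stimulatory receptor, was at 0.545 to 0.796 FPKM in Klebsiella and at 0.160 to 1.32 in Lactobacillus recipients. The limma adjusted p-values of Ctla4 and Icos were 0.988 and 0.999.

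The ratio of Foxp3 to Cd4 was the single one whose groups did not overlap. It was -4.65, -4.42, -4.69 and -4.20 on the log2 scale in Klebsiella and -4.94, -5.01, -5.96 and -4.70 in Lactobacillus recipients. The difference was 0.66, higher in Klebsiella recipients, with an exact permutation p of 0.0286 (n = 4 each), the smallest that 4 against 4 can give. After adjustment over the 12 ratios the p was 0.343, the smallest that a single ratio could have here, so that the adjusted test could not call it. The gap between the groups was narrow, from -4.69 in Klebsiella replicate 3 to -4.70 in Lactobacillus replicate 4. Without Lactobacillus replicate 3, which had 5 reads of Foxp3, the difference was 0.39. In a list of 17 regulatory T cell partners 13 were tested and 0 passed, with 7 log2 differences above 0, 6 below and a median of 0.07.

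Cytokines and transcription factors of T cells gave no call either. Of 19 T cell cytokine genes, Xcl1 among them, 13 were too low to test. Of the 6 tested, 4 had a log2 difference above 0 and 2 below, with a median of 0.06. Ltb, lymphotoxin beta, was the most abundant, at 4.31 to 11.7 FPKM, and Il4 ranged from 0.571 to 1.78 FPKM. Of 13 tested transcription factors 5 were above 0 and 8 below, with a median of -0.01. Zbtb7b, which directs the CD4 lineage, was at 148 to 243 FPKM and Id3 at 68.3 to 152, far above any T cell receptor gene in the same libraries. Which cells held these transcripts was not tested, so that the median of this list is not a measure of T cells. Of 24 tested lymphocyte homing genes 14 were above 0 and 10 below, with a median of 0.07, and Ccl25, the small-intestinal chemokine, was at 6.88 to 12.2 FPKM.

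How the T cell genes moved together was measured against Cd3e over the 8 libraries. Of 12 pairs, 3 passed by Pearson's r after adjustment and 0 by Spearman's rho, by two-sided exact permutation over 40320 pairings. Itgae had an r of 0.887 (adjusted exact p 0.0439, rho 0.857, adjusted exact p 0.0643), Cd8a an r of 0.836 (adjusted exact p 0.0439, rho 0.762, adjusted exact p 0.110) and Gzmb an r of 0.774 (adjusted exact p 0.0464, rho 0.667, adjusted exact p 0.199). Foxp3 had an r of 0.716 and a rho of 0.881 (adjusted exact p 0.0792 and 0.0643). Some of the correlations rest on the extreme libraries. Without Lactobacillus replicate 2 and Klebsiella replicate 1, the 2 farthest from the Cd3e median, 0 of 12 passed. Then r was 0.729 for Itgae, 0.691 for Cd8a, 0.342 for Gzmb, 0.256 for Ccl5 and 0.0106 for Gzma, and the r of Cd4 went from 0.638 to -0.27 (the 12 adjusted exact p ran from 0.417 to 0.961 over 6 libraries). The r of Foxp3 was as large without these libraries, at 0.724 (exact permutation p 0.0458, adjusted p 0.417, 6 libraries). Each group of 4 was too small for values of its own. The libraries share the tissue and differ in depth.

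**Figure D4:**
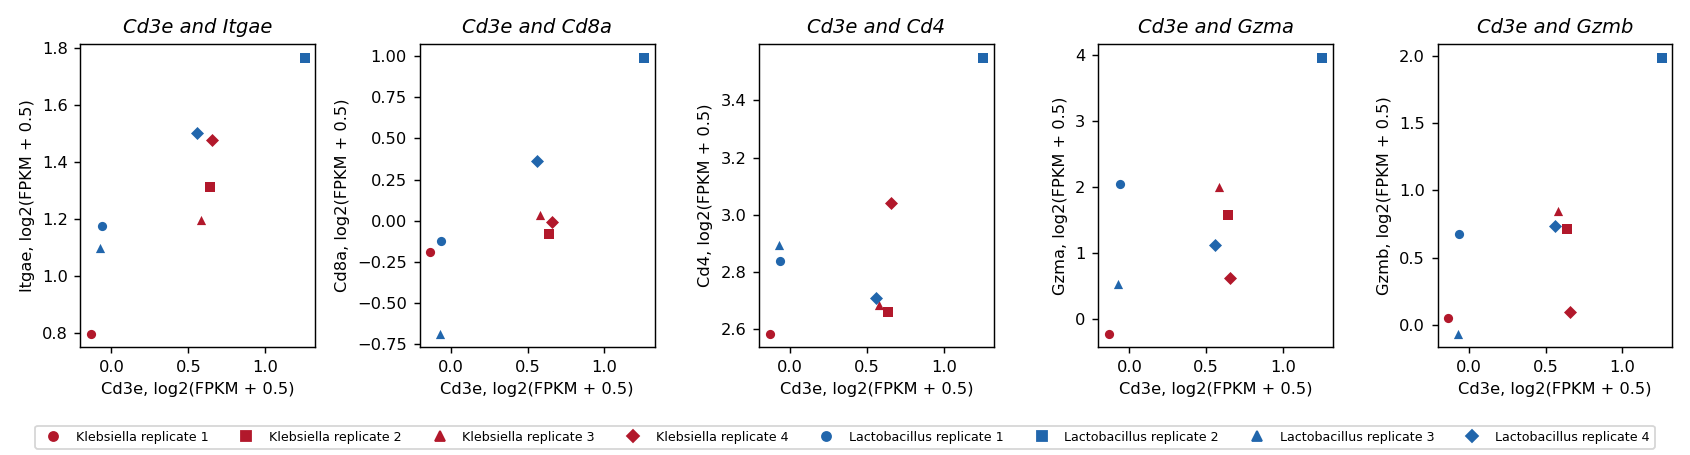
Levels of 5 genes against Cd3e, both as log2(FPKM + 0.5), in the 8 libraries (red Klebsiella, blue Lactobacillus recipients, marker shape by mouse number). Lactobacillus replicate 2 lies at the upper right of every panel (Itgae, Cd8a, Cd4, Gzma and Gzmb), and without it and Klebsiella replicate 1 the Pearson r was 0.729, 0.691, -0.27, 0.0106 and 0.342.

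Epcam, an epithelial adhesion molecule, had an r of -0.428 with Cd3e (exact permutation p 0.299, adjusted p 0.307, n = 8). Among genes outside all lists with a mean of at least 0.5 FPKM, the 5 nearest to Cd3e by Pearson's r over the 8 libraries were Gtf2a2 at 0.974, Cd300c2 at 0.964, Taf1d at 0.957, Rusc1 at 0.955 and Gm42067 at 0.95. Among the 5 nearest to Gzma were Mtch2 at 0.956, 3830403N18Rik at 0.941, Srrm3 at 0.937 and Ptprv at 0.926. Of these, Gtf2a2 is a general transcription factor subunit and Cd300c2 a leukocyte receptor. These are the highest values among all such genes and are given as a description.

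Other cell types differed in how far they shared these extremes. Of 12 B cell markers 1 was highest in Lactobacillus replicate 2 and 8 were lowest in Lactobacillus replicate 3. Their summed level was 40.5 to 97.3 FPKM in Klebsiella and 39.4 to 97.2 in Lactobacillus recipients, with Klebsiella replicate 3 and Lactobacillus replicate 3 far below the rest. Lactobacillus replicate 2 was thus high in T cell transcripts but within the range of the others in B cell transcripts. Of 12 macrophage markers 9 were highest in Lactobacillus replicate 2, with a summed level of 335 to 430 FPKM in Klebsiella and 384 to 577 in Lactobacillus recipients, the latter figure in that library. Of 8 dendritic cell markers 4 were highest in Lactobacillus replicate 2, and of 8 mast cell markers 3. No defining marker of B cells or macrophages was at 0. Plasma cell transcripts were highest in Klebsiella replicate 4, with a summed level of 1304 to 5127 FPKM in Klebsiella and 1740 to 3171 in Lactobacillus recipients, and 2 of 8 were highest in Lactobacillus replicate 2.

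**Figure D5:**
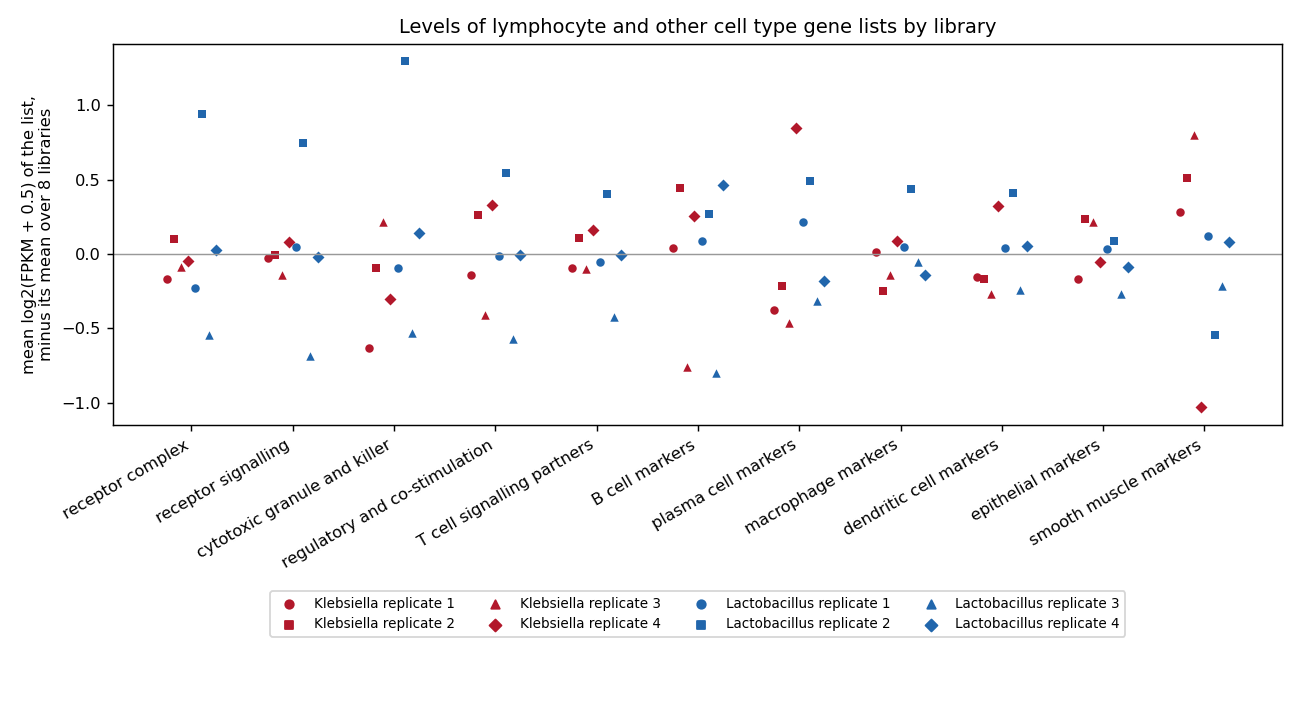
Mean log2(FPKM + 0.5) of gene lists in each of the 8 libraries, after subtracting the mean of the list over all libraries (red Klebsiella, blue Lactobacillus recipients, marker shape by mouse number). The blue square, Lactobacillus replicate 2, tops the receptor, signalling, cytotoxic and regulatory lists of the set, the T cell signalling partners, and the macrophage and dendritic cell lists. It does not top the B cell, plasma cell, epithelial or smooth muscle lists.

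Markers of position along the gut and of muscle moved with some of the same libraries. Hoxb6, a homeobox gene, was at 45.2 FPKM in Lactobacillus replicate 2 and at 40.2 in Klebsiella replicate 3, and at 1.16 to 3.87 in the others. Car1, a carbonic anhydrase of the proximal colon, reached 2947 FPKM in Lactobacillus replicate 2 and 2342 in Klebsiella replicate 3. Lactobacillus replicate 2 was the highest library for 27 of the 30 T cell genes, which left few for any other. Klebsiella replicate 3, which shared these position markers, was the highest for 0 and the lowest for 3. It was the second highest for 4 (Cd7, Gzmb, Nkg7 and Lck). Klebsiella replicate 4 was the second highest for 9 and Lactobacillus replicate 4 for 7, both with low Hoxb6. Over the 5 cytotoxic granule and killer genes the summed level of Klebsiella replicate 3, 9.31 FPKM, was second to the 28.2 of Lactobacillus replicate 2. Lactobacillus replicate 4 was close to it, at 8.80. Smooth muscle markers had a summed level of 938 to 3616 FPKM in Klebsiella and 1382 to 2339 in Lactobacillus recipients, lowest in Klebsiella replicate 4 and, within its group, in Lactobacillus replicate 2. Pancreatic transcripts were high in Klebsiella replicate 2 and Lactobacillus replicate 3, with Ctrb1 at 418 and 112 FPKM and at 0.131 to 2.99 in the others. The part of position, muscle, macrophages or pancreas in the T cell levels was not tested.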

How the data were processed

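Per the labels' protocols, RNA was taken from frozen intestine of 8 mice, 4 per group, and libraries were made with an Illumina TruSeq kit. The submitters' processing notes name, without role or order, DESeq2 1.10.1, HTSeq 0.6.0, STAR 2.5.1b and CASAVA. The build and the annotation were not given in the sources used here. As FPKM, the authors deposited values for 49585 identifiers, and counts of filtered reads and the percent of bases at quality 30 (90.65 to 94.57%) per library. Symbols for 49326 identifiers came from the GENCODE annotation on GRCm38; 259 had none.

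The FPKM of all 26963 genes above 0 in at least 2 libraries were whole multiples of 1 read, within a relative tolerance of 1e-10, which gave reads per gene. A common factor cannot be seen, and whether the unit is a read or a pair was not checked. Genes with a mean of at least 0.5 FPKM were compared as log2(FPKM + 0.5), a scale that understates changes of low genes, with limma 3.58.1 in R 4.3.3 (mean-variance trend, two-sided, Benjamini-Hochberg over 16865 genes, threshold 0.05) as Klebsiella minus Lactobacillus. The fit was run on simulated reads, drawn independently per library with a fixed dispersion. These lacked the shared differences between mice seen here, so they do not show how it behaves on this set. Ratios and correlations used exact permutation over libraries, with Benjamini-Hochberg over 12 each. Mice are the replicates. Poisson intervals cover counting error only.

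The members, the other gene lists, the ratios and the alternatives were chosen with earlier results of these data known. Named outside the set were the 4 genes of highest mean FPKM in each list, the 4 such variable segments, and the 5 genes nearest to Cd3e and to Gzma. Il15, Btnl1, H2-T3, Tcrg-C1, Ncr1, Klrb1c, Eomes and Epcam were named besides. Other steps ran in Python 3.11.15 with scipy 1.17.1, pandas 2.3.3, numpy 2.4.6 and matplotlib 3.10.9. Alternatives were other pseudocounts, filters and scalings, array weights, a robust prior, voom, a covariate, the mouse number as a block, and libraries left out. Some genes are not reported here, with 1 ratio, 1 correlation and 1 covariate that need them.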

Additional observations from a re-analysis of the deposited data

Results flagged for a closer look

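Of 84 groups of 4 values examined, 7 held 1 library whose gap to the nearest of the others was above Dixon's 95% critical value for 4. Chance gives about 1 in 20 groups where values are independent and normally distributed. The groups here share the same mice and most are raw FPKM, so that 7 of 84 cannot be read against that rate. Among Lactobacillus recipients replicate 2 was far above the others in Cd3g at 4.50 FPKM, in Cd7 at 6.42, in Nkg7 at 3.26 and in Ccl5 at 9.18. Cd3g belongs to the receptor complex, Cd7 to the surface receptors, Nkg7 to the cytotoxic granule and Ccl5 to the chemokines. Among Klebsiella recipients replicate 1 was far below the others in Cd3e, at 0.412 FPKM from 8 reads, and replicate 2 was above the others in Cd160, at 0.658 FPKM. In the log2 ratio of Cd8a to Cd3e, Lactobacillus replicate 3 was far below the rest of its group at -1.55, from 7 reads of Cd8a and 12 of Cd3e.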

How the results depend on the processing

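Limma called 0 of the tested genes in the set under all 22 other settings, and 0 of all genes; the median difference of the set ran from -0.39 to 0.12. Of 13 other settings for the ratios, 11 could give no exact p under 0.05 whatever the values (at best 0.0571 for 3 against 4, 0.1 for 3 against 3 and 0.125 within mouse numbers), so their 0 calls say nothing; with the other 2, both pseudocounts, 0 passed. Signs were not stable. Cd4, Gzma, Gzmb and Itgae were lower in Klebsiella recipients under every setting run. The mouse numbers did not pair the libraries (correlations of deviations 0.189, -0.100, -0.0591 and -0.159); with the number as a replicate block 0 genes of the set were called (smallest adjusted p 0.81), and the smallest adjusted p of a ratio was 0.667 in a design that could call none. The count of correlations with Cd3e that passed went from 3 to 0 with median-of-ratios scaling, with a pseudocount of 0.1 and without either pair of libraries, and ran from 0 to 5 with 1 library left out, 5 without Lactobacillus replicate 1. The cause of the changes was not tested; fewer libraries also leave fewer pairings. Depth limits Cd8b1, Xcl1, Prf1 and Trdc most, with 1 to 24 reads per library.

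Without the pair with high Hoxb6 (Klebsiella replicate 3, Lactobacillus replicate 2) the log2 difference turned positive for Ccl5 (0.0593), Cd160 (0.0309), Cd2 (0.20), Cd3d (0.269), Cd3g (0.125), Cd6 (0.313), Cd8a (0.0567), Ctla4 (0.535), Klrd1 (0.0203), Lat (0.136), Trbc1 (0.0133), Trbc2 (0.271) and Xcl1 (0.0926). There the r of Cd3e was 0.155 with Epcam and -0.534 with Trdc. Without the pair with high Ctrb1 (Klebsiella replicate 2, Lactobacillus replicate 3) it turned negative for Cd247 (-0.171), Cd3e (-0.215), Icos (-0.318), Lck (-0.124), Trac (-0.334) and Zap70 (-0.201), and the log2 ratios changed sign for Cd4 to Cd3e (0.0173), Cd8a to Cd4 (-0.446) and Trdc to Trac (0.173). Array weights gave Cd247 -0.0346, Cd3e -0.0862, Ctla4 0.00692, Icos -0.0144, Lck -0.012, Trac -0.0737 and Zap70 -0.146. Hoxd13 as a covariate gave Cd247 -0.206, Cd3e -0.442, Lck -0.0441 and Trac -0.0408. A pseudocount of 1 gave Cd3e -0.000201, Icos -0.0171 and Zap70 -0.00612, and voom gave Cd3d 0.0168.

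With each library left out in turn, the log2 difference changed sign for 20 genes, with ranges as follows: Ccl5 (-0.53 to 0.0641), Cd160 (-0.359 to 0.0159), Cd2 (-0.267 to 0.0486), Cd247 (-0.12 to 0.251), Cd3d (-0.331 to 0.30), Cd3e (-0.148 to 0.295), Cd3g (-0.502 to 0.0952), Cd6 (-0.395 to 0.164), Cd7 (-0.646 to 0.00075), Cd8a (-0.471 to 0.0888), Ctla4 (-0.282 to 0.272), Icos (-0.274 to 0.215), Klrd1 (-0.787 to 0.0101), Lat (-0.508 to 0.0343), Lck (-0.0954 to 0.254), Nkg7 (-0.473 to 0.0161), Trac (-0.306 to 0.44), Trbc2 (-0.338 to 0.288), Xcl1 (-0.324 to 0.132) and Zap70 (-0.238 to 0.307). The log2 ratio changed sign for Cd8a to Cd4 (-0.429 to 0.402) and Trdc to Trac (-0.721 to 0.172), and the r of Cd3e with Epcam (-0.728 to 0.182) and Trdc (-0.308 to 0.621). Most sign changes came without Lactobacillus replicate 2 (16 results) or without Lactobacillus replicate 3 (8).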
